A study of Caenorhabditis elegans with 2 samples.

Results

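Regions bound by eGFP-tagged NHR-28 were examined at 9 metal homeostasis genes of Caenorhabditis elegans: the metallothionein genes mtl-1 and mtl-2, the ferritin genes ftn-1 and ftn-2, the zinc transporter genes cdf-1, cdf-2 and ttm-1, the iron and manganese importer gene smf-3 and the heme transporter gene hrg-1. The genes were listed by symbol and function, 9 of 19973 protein-coding genes outside mitochondrial DNA, and all 9 matched 1 gene each of Ensembl release 115. NHR-28 is a nuclear hormone receptor, a transcription factor of a family that is much expanded in nematodes. Chromatin immunoprecipitation followed by sequencing (ChIP-seq) gave 2 biological replicates of a single group, with no other condition to compare. Both came from whole L4 larvae (the last larval stage) of strain OP317, genotype unc-119(ed3) III; wgIs317, in which an integrated transgene supplies the tagged receptor; males and females were pooled and the age is unknown. The labels name the antibody only by its target, nhr-28. Whole animals were used, so the tissue in which a region was bound is not resolved, and the transgene adds to the receptor that the strain makes itself.

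Cells must take up zinc, iron and heme and yet keep their free levels low. Metallothioneins are small cysteine-rich proteins that bind metal ions, ferritin stores iron in a protein shell, cation diffusion facilitators carry zinc out of the cytoplasm, and worms, which cannot make heme, import it. In C. elegans much of this exchange takes place in the intestine, where zinc, iron and hypoxia signals are known to set the transcription of several of these genes.

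The data were 4 deposited lists of regions: 1 for each replicate (30000 regions each), 1 from the pooled alignments (29697) and an optimal set of 8745 regions that the authors selected from them. The replicate and pooled lists keep weak background regions, and the optimal set is the strong end of the pooled list. The value given below as signal is the authors' own score for a region. No source used here states its scale, and the replicate lists carry lower values than the pooled list, so signal is compared within a list, and ranks (1 is highest) are counted within a list. In the optimal set signal ran from 36.2 to 993 with a median of 72.7. The read depth behind a region is unknown.

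An optimal summit lay between 3 kb upstream of the gene start and the gene end in 7 of the 9 genes, namely mtl-1, mtl-2, ftn-2, cdf-2, ttm-1, smf-3 and hrg-1. Of all protein-coding genes, 38.1% had an optimal summit in the same window. No optimal summit lay in the windows of ftn-1 and cdf-1. In the pooled list 8 of the 9 had a region (61.8% of all genes), and in each replicate list all 9 did (64.4% of all genes in replicate 1, 66.8% in replicate 2), so presence in those lists says little by itself. The windows held 15 optimal regions in all, from 5 at hrg-1 to 1 each at ftn-2, cdf-2 and smf-3. Their median signal was 116, and 11 of the 15 were above the median of the whole set. The genes were listed with earlier results of these data known, and the counts are a description without a test.

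Long windows hold summits more often, and the listed genes are not alike in length. Windows under 5 kb held an optimal summit in 3 of 4 listed genes (30.4% of all genes with such windows). Windows of 5 to 10 kb held one in 2 of 3 (43.4%), and windows of 10 kb or more, those of ttm-1 and hrg-1, in 2 of 2 (55.2%). The median window was 5278 bp for the listed genes and 5027 bp for all genes.

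**Figure D1:**
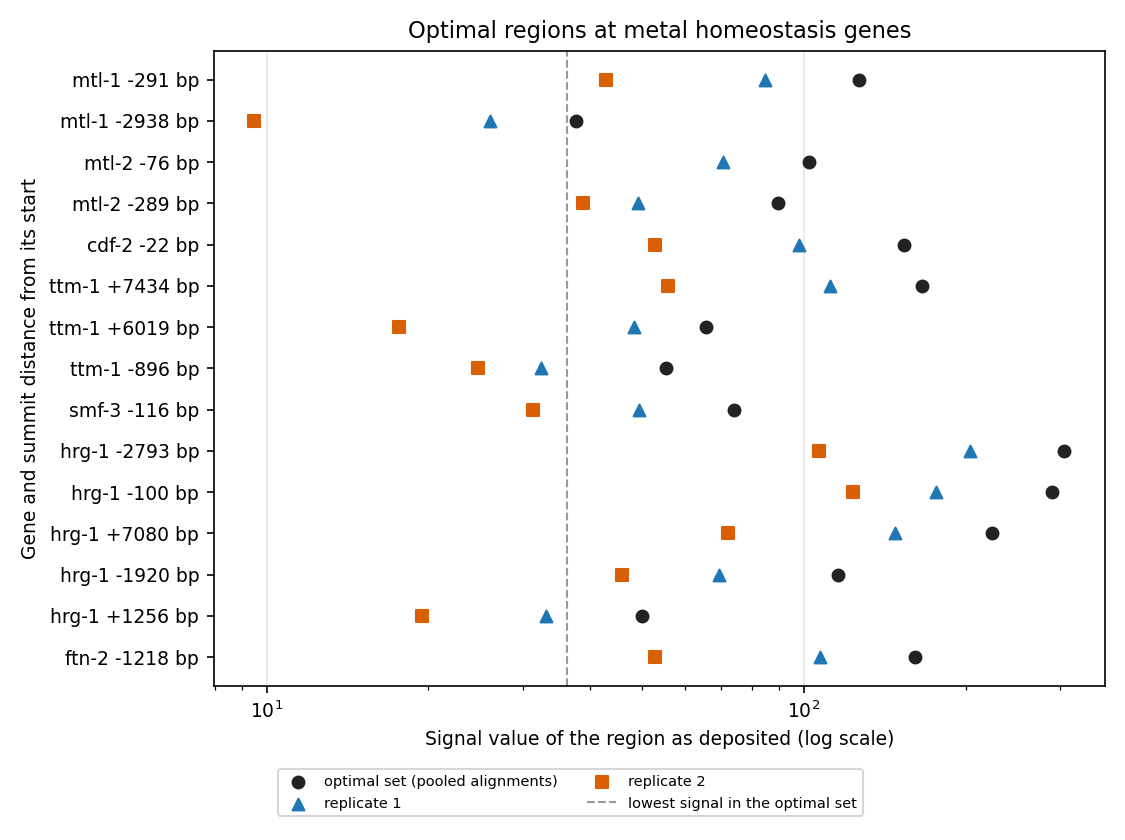
Signal of the 15 optimal regions in the windows of the listed genes (horizontal, log scale), in the optimal set and in the region of each replicate list that covers the same summit; rows give the gene and the summit's distance from its start. Replicate 1 lies to the right of replicate 2 in each row that holds both, and replicate 2 has no point at mtl-2 -76 bp.

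The sequences around the summits that carry the results are given with each gene, 101 bp centred on the summit, on the gene's sense strand, read from the WBcel235 (ce11) genome of RefSeq. Capitals mark any of 10 short motifs that were searched on both strands: the GATA forms TGATAA and AGATAA, the forkhead form GTAAACA, the hypoxia core ACGTG, the E-box CACGTG (which contains that core), the bZIP form TGACTCA, the nuclear receptor half-sites AGGTCA and AGTTCA, the HNF4-type half-site AAGTCCA and the repeat GAGAGAGA. A motif read on the other strand appears as its complement, as TTATCA for TGATAA.

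The metallothionein genes mtl-1 and mtl-2, whose products bind zinc, cadmium and other metal ions, each had a region of moderate signal within 300 bp upstream of the start. The main region of mtl-1 (chrV:6692097-6692257) had its summit at -291 bp, in intergenic sequence with mtl-1 as the gene of the nearest start, and its signal was 127 in the optimal set, 84.8 in replicate 1 (rank 1609) and 42.8 in replicate 2 (rank 2455). Both replicates thus placed it well inside their stronger regions, and the summit of replicate 2 lay 70 bp away from that of the optimal set. At mtl-2 the summits lay at -76 bp (chrV:14018574-14018923, signal 102) and -289 bp (chrV:14018891-14019044, signal 89.3). The first was covered by a region of replicate 1 alone (70.7, rank 2280), and no region of replicate 2 reached it. The second had 49.0 in replicate 1 (rank 3997) and 38.8 in replicate 2 (rank 2874), which made it the only region of replicate 2 in the window. They are shown because TGATAA lies on or beside the summit at mtl-1 and at the nearer summit of mtl-2.
mtl-1 at -291 bp: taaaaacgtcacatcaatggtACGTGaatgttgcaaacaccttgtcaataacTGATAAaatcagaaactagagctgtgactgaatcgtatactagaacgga
mtl-2 at -76 bp: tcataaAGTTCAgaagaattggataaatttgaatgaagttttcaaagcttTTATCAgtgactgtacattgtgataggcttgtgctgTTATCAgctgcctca
mtl-2 at -289 bp: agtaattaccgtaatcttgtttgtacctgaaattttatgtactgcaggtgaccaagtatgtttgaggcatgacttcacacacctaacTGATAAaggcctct

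In mtl-1 TGATAA began 2 bp past the summit, and ACGTG lay 29 to 25 bp before it (positions -29 to -25). In the nearer region of mtl-2 TGATAA covered positions 0 to 5 and again 36 to 41, both on the other strand, and AGTTCA covered -44 to -39. In the farther one TGATAA covered 37 to 42. The regions at mtl-2 cannot be given to that gene alone, because the divergent gene T08G5.1 starts close by: its start was nearer to both summits (-17 and 196 bp from it, against -76 and -289 bp from that of mtl-2), and the second lay in its 5′ UTR. A second optimal region in the window of mtl-1 (chrV:6694626-6694975), at -2938 bp, was close to the start of W02F12.8 (-33 bp from it). It was weak, with a signal of 37.7 in the optimal set, 26.0 in replicate 1 (rank 7941) and 9.48 in replicate 2 (rank 12013).

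Among the zinc transporter genes, ttm-1 and cdf-2 had strong regions and cdf-1 had none in the optimal set. All 3 encode cation diffusion facilitators: CDF-2 loads zinc into the storage granules of intestinal cells, TTM-1 exports zinc at the gut lumen, and CDF-1 exports it at the opposite, basolateral side. The region of cdf-2 (chrX:12466828-12467075) had its summit at -22 bp, with a signal of 153 in the optimal set, 98.0 in replicate 1 (rank 1142) and 52.9 in replicate 2 (rank 1674), and the replicate summits lay 1 and 0 bp from it. The summit was in the windows of 2 protein-coding genes, and the nearest start was that of cdf-2. The highest region of ttm-1 (chrIII:12959484-12959670) was not at the gene start but in an intron, at 7434 bp, with a signal of 166, and with 112 in replicate 1 (rank 855) and 55.9 in replicate 2 (rank 1508). The ttm-1 gene has transcripts with different starts, and this summit lay at -2390 bp from the nearest of them, that of transcript b, whose product is the one known for zinc excretion. A further intronic region at 6019 bp had 65.8 in the optimal set, 48.4 in replicate 1 and 17.6 in replicate 2. The only optimal region upstream of the first start, at -896 bp, had 55.3, 32.4 and 24.7 in the same order. The region inside the gene was therefore the highest of ttm-1 in all 3 lists. The sequences show the summit beside the start of cdf-2 and the intronic one of ttm-1.
cdf-2 at -22 bp: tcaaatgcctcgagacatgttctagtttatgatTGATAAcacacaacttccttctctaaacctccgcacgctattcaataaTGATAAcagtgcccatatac
ttm-1 at 7434 bp: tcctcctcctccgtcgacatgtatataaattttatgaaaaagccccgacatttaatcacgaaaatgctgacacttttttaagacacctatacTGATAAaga

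In cdf-2 a pair of TGATAA copies flanked the summit, at -17 to -12 and 31 to 36. In ttm-1 the intronic summit had it at 42 to 47, and the summits at 6019 and -896 bp also had a copy each, while TGACTCA lay at the first of these (43 to 49).

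At cdf-1 the region of highest signal in the pooled list was at -91 bp, with 24.3 (rank 11570), below the weakest optimal region. It had 12.2 in replicate 1 (rank 13610, summit at -80 bp) and 13.6 in replicate 2 (rank 9176, summit at -91 bp). Thus both replicates placed a weak region at the cdf-1 start, and neither gave it a maximal −log10 q. The leading regions of ttm-1 and cdf-2 ranked from 855 to 1674 over both replicate lists, closer to each other than the replicates were for either gene, and that of cdf-1 stood apart at 9176 and 13610.

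The importer gene smf-3, which encodes an NRAMP-type carrier of iron and manganese at the apical membrane of the intestine, had a single optimal region of about median signal. It lay at -116 bp (chrIV:2618578-2618927), with 74.2 in the optimal set (rank 4256 of 8745), 49.3 in replicate 1 (rank 3965) and 31.3 in replicate 2 (rank 3880), and it had the lowest highest signal of the 7 genes. The replicates ranked it alike. Its sequence is shown because it held TGATAA 3 times on the same strand, at -38 to -33, -26 to -21 and -13 to -8, all before the summit.
smf-3 at -116 bp: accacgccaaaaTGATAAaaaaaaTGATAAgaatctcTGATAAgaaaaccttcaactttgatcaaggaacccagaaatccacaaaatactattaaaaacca

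The heme transporter gene hrg-1, whose product moves heme out of endosomes and lysosomes of intestinal cells, had the highest signal of the 9 genes and the most optimal regions (in replicate 1 ttm-1 had more regions, 8 against 7). It ranked 258 among the 7608 protein-coding genes with an optimal summit, by the highest signal in the window. Its 5 optimal summits compare with a median of 1 among those genes, and 0.731% of all protein-coding genes had 5 or more. Its window was longer than most, 11165 bp against a median of 5027 bp, and the share among windows of like length was not counted. The highest (chrX:4018820-4019219, at -2793 bp) had a signal of 305 in the optimal set, 204 in replicate 1 (rank 146) and 107 in replicate 2 (rank 310). The second (chrX:4016112-4016476, at -100 bp) had 289.5, 176 (rank 243) and 123 (rank 206). Replicate 1 thus had the distal region higher and replicate 2 the one at the gene start, so their order is not resolved. The third (chrX:4009020-4009258, at 7080 bp) had 224, 148 (rank 410) and 72.2 (rank 870). It lay in an intron of the long transcript and at -160 bp from the start of the shortest transcript of hrg-1.
hrg-1 at -2793 bp: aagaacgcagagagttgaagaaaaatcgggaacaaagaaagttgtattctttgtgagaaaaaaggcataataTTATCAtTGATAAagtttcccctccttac
hrg-1 at -100 bp: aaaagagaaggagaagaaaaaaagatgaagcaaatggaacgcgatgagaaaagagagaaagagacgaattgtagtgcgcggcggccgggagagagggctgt
hrg-1 at 7080 bp: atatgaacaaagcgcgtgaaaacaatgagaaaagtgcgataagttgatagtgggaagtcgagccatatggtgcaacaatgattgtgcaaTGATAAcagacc

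The distal region held TGATAA in both orientations with 1 base between them (22 to 27 and 29 to 34), the third held it at 39 to 44, and the purine-rich sequence at the hrg-1 start held none of the 10 motifs. The other optimal regions of hrg-1 were weaker, with 116 at -1920 bp (69.4 in replicate 1, 45.9 in replicate 2) and 50.1 at 1256 bp (33.1 and 19.4). These regions cannot all be given to hrg-1, because mop-25.1, a gene of the conserved MO25 family, overlaps it on the other strand. Of the 5 summits, 4 lay in introns of mop-25.1, and those at -2793 and -1920 bp were nearest to a start of mop-25.1 (-233 and -1106 bp from it). Those at -100, 7080 and 1256 bp were nearest to a start of hrg-1. A further optimal summit, with a signal of 198, lay 141 bp past the end of hrg-1 and so outside the window.

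**Figure D2:**
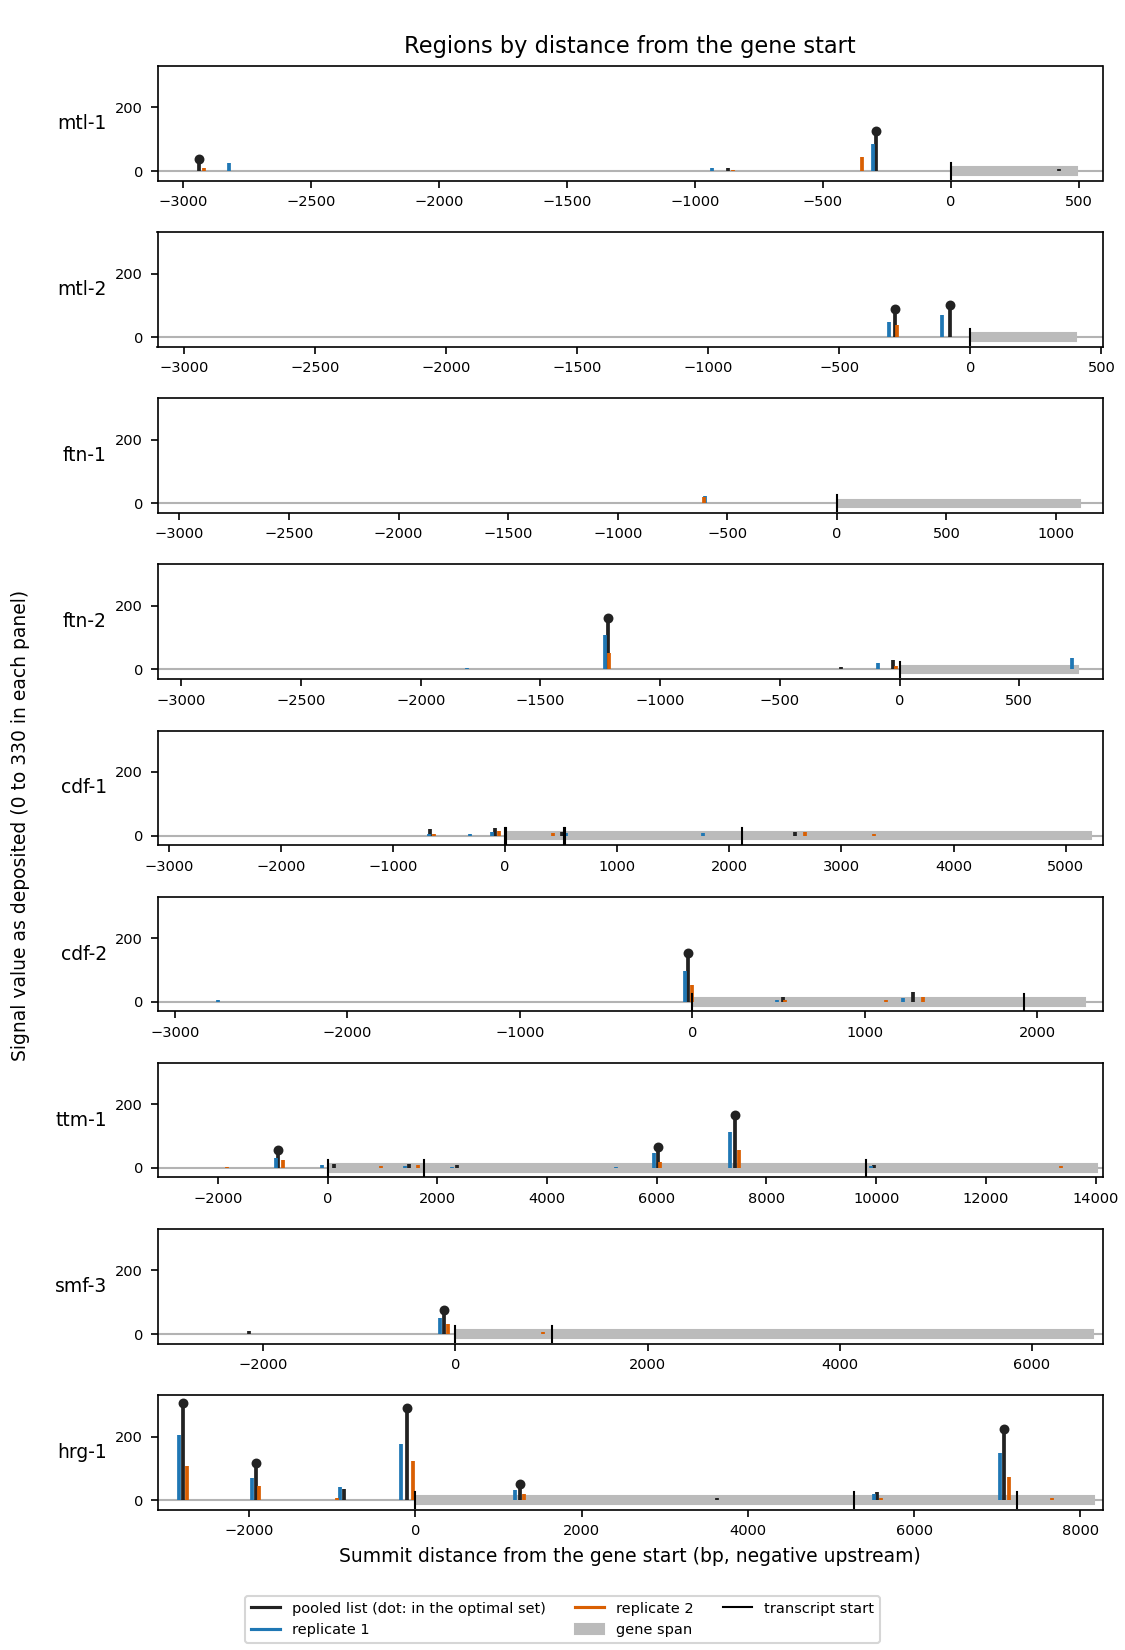
Regions in the window of each listed gene, by summit distance from the gene start (horizontal, bp, scale differs between panels) and signal (vertical, same scale in all panels); black bars are the pooled list, with a dot for the optimal set, blue and orange bars the replicates, drawn slightly apart. The bars of hrg-1 reach 305, those of cdf-1 stay at or below 24.3, and ftn-1 has bars of the replicates only.

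The ferritin genes stood apart from each other. For ftn-1, expressed mainly in the intestine, neither the optimal set nor the pooled list had a summit in the window, although both replicate lists had a region there at the maximal −log10 q of the list. In replicate 1 it lay at -584 bp (chrV:7547988-7548337) with a signal of 23.2 (rank 8739), and in replicate 2 at -623 bp (chrV:7548032-7548371) with 19.6 (rank 6667). The regions of the replicates overlapped, and both ranked within the first 8745 of their list, the size of the optimal set. The nearest pooled summit lay 3100 bp from that of replicate 1. This is rare in these lists: of 7646 regions of replicate 1 at maximal −log10 q that overlapped one of replicate 2 at maximal −log10 q, 26 (0.340%) had no overlapping pooled region. Its reason was not tested. The pooled list as used here holds 29697 regions where each replicate list holds 30000 and may not be complete, so the lack of a pooled or optimal region at ftn-1 cannot be read as a lack of binding. The sequence around the summit of replicate 1 had ACGTG at -39 to -35 and no TGATAA.
ftn-1 at -584 bp: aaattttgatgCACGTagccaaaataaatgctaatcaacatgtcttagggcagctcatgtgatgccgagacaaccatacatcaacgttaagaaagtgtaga

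**Figure D3:**
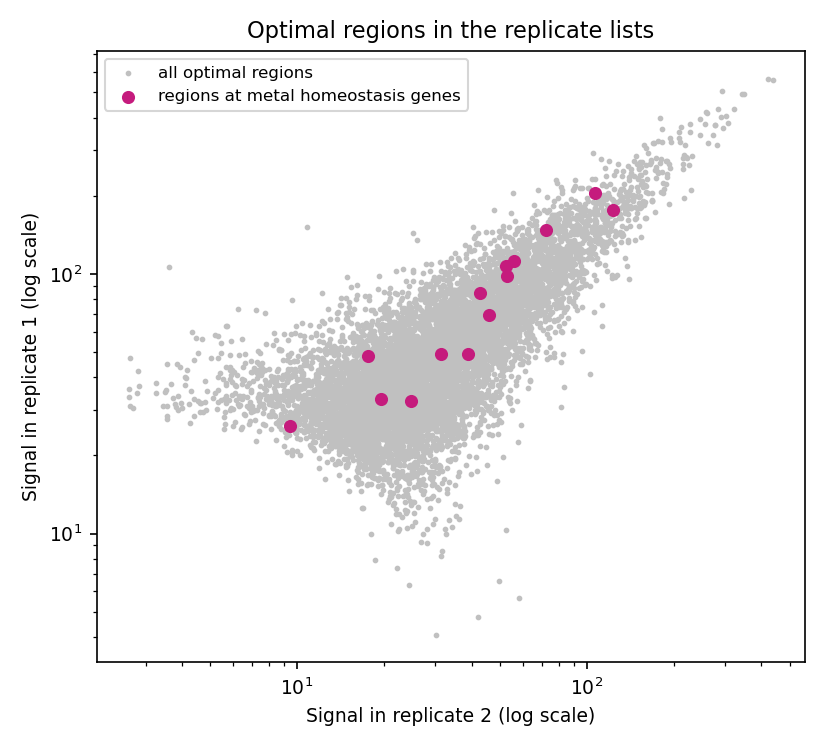
Signal of each optimal region in replicate 1 (vertical, log scale) against replicate 2 (horizontal, log scale), for all optimal regions with a region over the summit in both lists (grey, 8557) and for those of the listed genes (magenta, 14). The magenta points lie within the grey cloud, with ratios from 1.26 to 2.75.

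The other ferritin gene, ftn-2, is expressed more widely and makes most of the ferritin of the worm. Its optimal region spanned 3682079 to 3682229 of chromosome I, upstream of the gene at -1218 bp, with ftn-2 as the gene of the nearest start. The summit lay in the windows of 2 protein-coding genes, ftn-2 among them. The signal was 161 in the optimal set, 107 in replicate 1 (rank 945) and 52.8 in replicate 2 (rank 1687). It ranked close to the leading regions of ttm-1 and cdf-2 in all 3 lists. A weaker region at -29 bp had 30.8 in the pooled list (rank 9870), below the weakest optimal region, 21.6 in replicate 1 (summit at -75 bp) and 10.2 in replicate 2. An optimal summit with a signal of 56.6 also lay 65 bp past the gene end, outside the window. An overlapping region of replicate 1 had its summit inside the window, in the 3′ UTR at 736 bp, with 34.6 (rank 5968). The 101 bp around the summit at -1218 bp held TGATAA on the other strand at -31 to -26, CACGTG at 32 to 37 and a further ACGTG.

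A region covered the summit in both replicates in 14 of 15 (97.9% of all optimal regions), the exception being that at -76 bp of mtl-2, and in 13 of 15 both replicate regions were at the maximal −log10 q of their list (81.7% of all optimal regions). Signal was higher in replicate 1 than in replicate 2 in all 14, by 1.26 to 2.75 times with a median of 1.88. Over all optimal regions the median ratio was 1.61, and the range from the 5th to the 95th percentile was 0.800 to 3.63, which took in all 14. Near the threshold of the optimal set, the weakest included region was that of mtl-1 at -2938 bp (37.7, rank 8469 in the pooled list), and the strongest left out was one of hrg-1 at -856 bp (36.1, rank 8760).

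By position, 11 of the 15 summits lay upstream of the listed gene and 4 in its introns, with 0 in an exon. Over all 11559 pairs of a protein-coding gene and an optimal summit in its window, 73.1% of summits were upstream, 19.8% in an intron and 7.03% in an exon, so the listed genes were close to the whole. A protein-coding start lay within 500 bp of 9 of 15 (44.6% of all optimal summits), and the listed gene owned the nearest start for 10 of 15 (64.1% of all pairs). The other 5, at mtl-1 (-2938 bp), mtl-2 (both) and hrg-1 (-2793 and -1920 bp), were nearer to the start of a neighbour.

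TGATAA was found within 50 bp of 12 of the 15 summits, against 33.3% of all optimal summits. In C. elegans this sequence is best known as the site of GATA factors of the intestine. The exceptions were mtl-1 at -2938 bp and hrg-1 at -100 and 1256 bp, so each of the 7 genes had a region with it. At least 2 copies were held by 4 of 15 regions (9.62% of all). The listed regions were poorer in G and C, with a median of 34.7% against 40.6%, and higher in signal, and both moved with the motif. Among all optimal summits with GC under 40% the share with TGATAA was 50.1%, with 10 of 12 listed regions. Among those at or above the median signal it was 36.3%, with 10 of 11. Within 25 bp of the summit it was found at 5 of 15 (19.7% of all). The part of base composition in the count was not tested otherwise, and a match in the sequence does not show that a factor binds there.

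The other motifs were found at few of the summits. ACGTG, the core of the site of the hypoxia factor HIF-1, which is known to act on ferritin genes and smf-3 in the worm, was found at 3 of 15 (15.6% of all), namely mtl-1 at -291 bp, ftn-2 and hrg-1 at 1256 bp. CACGTG was found at 1 (4.60%), TGACTCA at 1 (1.51%) and the half-site AGTTCA at 1 (5.98%). AGATAA (10.2% of all), GTAAACA (2.61%), the half-site AGGTCA (4.38%), AAGTCCA (0.503%) and GAGAGAGA (5.61%) were found at 0 of the 15.

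Other genes of metal handling were set beside the 9, by a list of 54 symbols of which 52 matched a protein-coding gene. The symbols fpn-1.3 and cdr-5 matched none and were left out of the counts. An optimal summit lay in the window of 30 of these 52 (57.7%, with 38.1% of all protein-coding genes). Genes that regulate iron had the highest signals: aco-1, a cytoplasmic aconitase of the iron regulatory protein family (449, summit at -174 bp), egl-9, the prolyl hydroxylase that marks HIF-1 for breakdown (265, -1761 bp), and hif-1 (212, -2031 bp), all 3 of 3 in that role. They were followed by cdr-1, a cadmium-responsive gene (208, -7 bp), mdt-15, a Mediator subunit gene (193, where the start of W04D12.1 was nearer), and mfn-1, a mitoferrin gene (188, -751 bp). In replicate 1 and replicate 2 the highest regions of aco-1 had 255 and 194, those of egl-9 146 and 125, and those of hif-1 103 and 118.

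Within the heme role, 8 of 9 further genes had an optimal summit, from mrp-5, a heme exporter gene (124), to hrg-2 (43.8). Among them, hrg-10 (63.7) rested mainly on replicate 1, where its highest region had 56.3. In replicate 2 its highest region had 4.70, below the median of that list (6.85). No optimal summit lay at hrg-3 (26.7 in the pooled list). The neighbours hrg-4, hrg-5 and hrg-6 share regions (99.9 for both hrg-5 and hrg-6), so these genes are not separate counts, and all of them were below hrg-1. Zinc importer genes of the zipt family had one in 6 of 14, led by zipt-2.1 (112). At zipt-2.2 and zipt-9 the highest summit was nearer to the start of another gene (dpy-13 and T01D3.6). The other zinc exporter genes sur-7 and toc-1 had an optimal summit in 0 of 2. Of the genes listed under zinc regulation, hizr-1 had an optimal summit at -172 bp with a signal of 99.9. It encodes the nuclear receptor that senses high zinc and activates cdf-2, ttm-1 and mtl-1. Of the others in that role, mdt-15 had the summit given above and haly-1 had none. The importer genes smf-1 and smf-2, paralogs of smf-3, had none, with 23.2 and 12.1 as the highest pooled signals. The ferroportin-type genes fpn-1.1 (63.5) and fpn-1.2 (96.6) each had an optimal summit. A further listed symbol of that type, fpn-1.3, matched no gene and was not examined. Cadmium-responsive genes had one in 5 of 8, of which cdr-6 and cdr-7 share their highest region (122) and are not separate counts. Copper genes had one in 2 of 4, cadmium detoxification genes in 1 of 3 and genes of mitochondrial iron in 1 of 2. Of these, cutc-1 (copper) and pcs-1 (cadmium detoxification) had their highest summit nearer to another gene's start (lap-1 and smc-6). Of all protein-coding genes, 38.1% had an optimal summit. Each role holds few genes, so the counts by role are a description and not a result about a metal function.

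**Figure D4:**
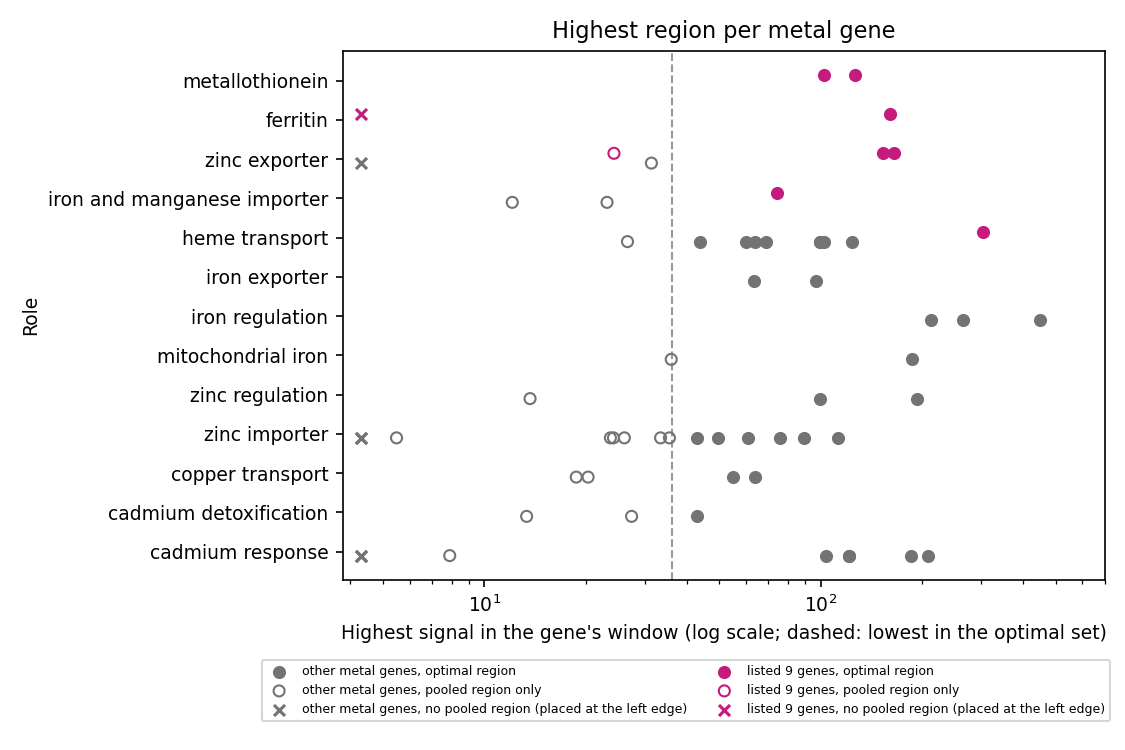
Highest signal in the window of each metal gene (horizontal, log scale) by role (vertical); filled points have an optimal region, open points a pooled region only, and crosses at the left edge no pooled region, with the 9 listed genes in magenta. The iron regulation genes reach 449, and hrg-1 at 305 is the highest of the listed genes.

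By the pattern over the pooled and replicate lists, the protein-coding gene outside the list that was most like hrg-1 was mop-25.1, which shares its regions (distance 0 on the log2 scale). It was followed by ttr-37 (0.0753), daf-5 (0.0899), F25D1.5 (0.104) and acs-2 (0.110), among 11151 genes with a region in all 3 lists. The measure was the Euclidean distance of the log2 signal of the highest region, over only 2 samples and their pool, so it says that these genes had like levels.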

How the data were processed

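ChIP-seq of eGFP-NHR-28 in L4 larvae was analysed as deposited region lists on ce11 (WBcel235). Per the deposited file descriptions, regions came from the alignments of 1 replicate or of both, together with a shared file that is not described, and background regions were kept as input for the irreproducible discovery rate procedure. No source used here names the peak caller or its thresholds. The authors deposited a signal score and a −log10 q for each region, and the −log10 q reached a ceiling shared by 10560 pooled regions, so only signal ranked regions. The lists on ce10 were not used here.

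Summits were placed against protein-coding genes of Ensembl release 115, and the same rule was applied to all 19973 of them. In each replicate list the strongest region covering an optimal summit was taken as its match. Sequences came from the RefSeq WBcel235 genome. Code ran in Python 3.11.15 with pandas 2.3.3 and numpy 2.4.6, and placement was checked on simulated summits. The labels number the samples as biological replicates. There was 1 group and no control sample was analysed here, so no test between groups was possible. Named were all 9 listed genes with their optimal regions (or, without one, their highest regions), the 6 other metal genes of highest signal with counts by role, and the 5 genes most like the leading one; other genes were named beside their counts after their values were seen. The listed genes, the other metal genes and the motifs were chosen with earlier results of these data known. Alternatives changed the window, the assignment, the set of regions and the motif width.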

Additional observations from a re-analysis of the deposited data

How the results depend on the processing

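The 7 of 9 listed genes with an optimal summit became 6 with a window from 1 kb upstream to 200 bp downstream of the start (without ftn-2) and 6 when a summit counted only for the nearest start (without mtl-2). The count was 8 without replicate 1 and 8 without replicate 2 (the 8745 strongest regions of the other replicate), with ftn-1 added in both, and 7 in the other settings. Of all genes, 4577 (22.9%) had a summit in the narrow window and 4497 (22.5%) above the median signal of the optimal set, against 7608, and 5182 (25.9%) by nearest start. Without a replicate the count of all genes was 7552 to 7598. Above that median, 19 other metal genes had a summit, against 30. The highest signal of ttm-1 was 55.3 in the narrow window and in the 3 kb window without the gene body, because its strongest region is intronic. TGATAA was found at 5 summits within 25 bp and at 12 within 100 bp (46.2% of all). The highest signal of hrg-1 was 289.5 in the narrow window and by nearest start, against 305. The remaining comparisons of a count or highest signal moved by less than 1.5 times. Shares by GC and signal were added after seeing the data. No paired analysis was possible because there was 1 group. The unknown read depth limits what a low signal, as at cdf-1, can show.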
